A study of Mus musculus with 6 samples.

Results

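Genes that build the junctions and the apical-basal polarity of epithelial cells were followed in whole mouse pancreas at postnatal day 7. They comprised 11 claudins, 6 other tight junction genes, 8 adherens junction genes, 5 desmosome genes, 10 polarity genes and 2 integrin subunits of the hemidesmosome. The list named 43 genes, and the 42 whose symbol stood in all 6 count files are described, out of 23337 symbols in each file. Patj had no row under that symbol. RefSeq gives Inadl as an older symbol of the same gene, and its row is given separately.

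The mutant mice carried the transgene CAG-loxP-STOP-loxP-Prox1-LacZ on a Ptf1a cre/+ background, so that cells in which Ptf1a has driven Cre excise the stop cassette and express Prox1 together with LacZ from the CAG promoter. These are mainly acinar cells, although Ptf1a is also active in early pancreas progenitors. The control mice were Ptf1a cre/+ without the transgene, so both groups carried Cre at 1 Ptf1a allele, and both were of strain NMRI. Each group had 3 libraries. The series design gives mutant samples as single pancreata and control samples as pools, while the extraction text mentions only individual pancreata, so pooling and genotype cannot be told apart. Nothing relates the samples to litters or days, so p-values measure only the spread between these 6 samples.

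Total counts lay between 7729161 and 9957737 in mutant libraries and between 7304727 and 10773223 in control libraries. Prox1, the gene that the transgene adds, was at 25.5, 31.3 and 30.9 CPM in mutants 1 to 3, against 10.8, 7.84 and 9.13 CPM in controls 1 to 3 (log2 fold change 1.67 ± 0.15 SE, edgeR adjusted p = 0.000239) and separated the groups as labelled. CPM are counts scaled to a common library size with TMM factors, and fold changes are mutant over control. Of 13017 genes tested with edgeR's quasi-likelihood test, 268 (2.06%) passed an adjusted p of 0.05, with 0.545% higher and 1.51% lower in mutants. In bulk tissue, fewer cells of a type and less RNA per cell cannot be told apart.

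Epithelial cells are sealed to each other by tight junctions, in which claudins form the strands that decide which ions pass between cells and zonula occludens proteins tie the strands to actin. Adherens junctions below them hold cells together through cadherins and catenins, desmosomes couple keratin filaments of neighbouring cells, and hemidesmosomes anchor the cell to laminin in the basement membrane. The Par, Crumbs and Scribble complexes decide which side becomes apical. In the exocrine pancreas this order lets acinar cells release enzymes into a lumen that the junctions keep separate from the tissue.

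Of the 42 junction and polarity genes, 0 rose and 2 fell in mutants, namely Cldn10, a claudin, and Pard6b, a Par complex adaptor. That is 4.76% of the members, beside 2.06% of all genes tested, and such a small count can turn on 1 gene. All 42 passed the filter on low counts. The groups did not overlap in 13 members (31.0%), 5 with mutants above and 8 with mutants below controls, beside 19.0% of all genes tested. At an unadjusted edgeR p under 0.05 there were 11 members (26.2%), 3 higher and 8 lower, beside 12.8% of all genes. DESeq2 called 1 member higher, Cldn4, and 1 lower, Cldn10. The log2 fold changes lay between -0.77 and 0.89, and 37 of the 42 were at most 0.5 in size. Their median was -0.03, and that of all genes tested was 0.00.

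Both calls were sensitive to single libraries. The call of Cldn10 was lost without control 1, control 2 or control 3 (edgeR adjusted p = 0.0604, 0.101 and 0.0559), and that of Pard6b without mutant 1, mutant 2, mutant 3, control 2 or control 3 (edgeR adjusted p between 0.0808 and 0.202). With library totals alone as the scaling, which moved the median of all genes tested from 0.00 to 0.17 on the log2 scale, both calls were lost and Cldn4 alone was called, as higher.

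**Figure D1:**
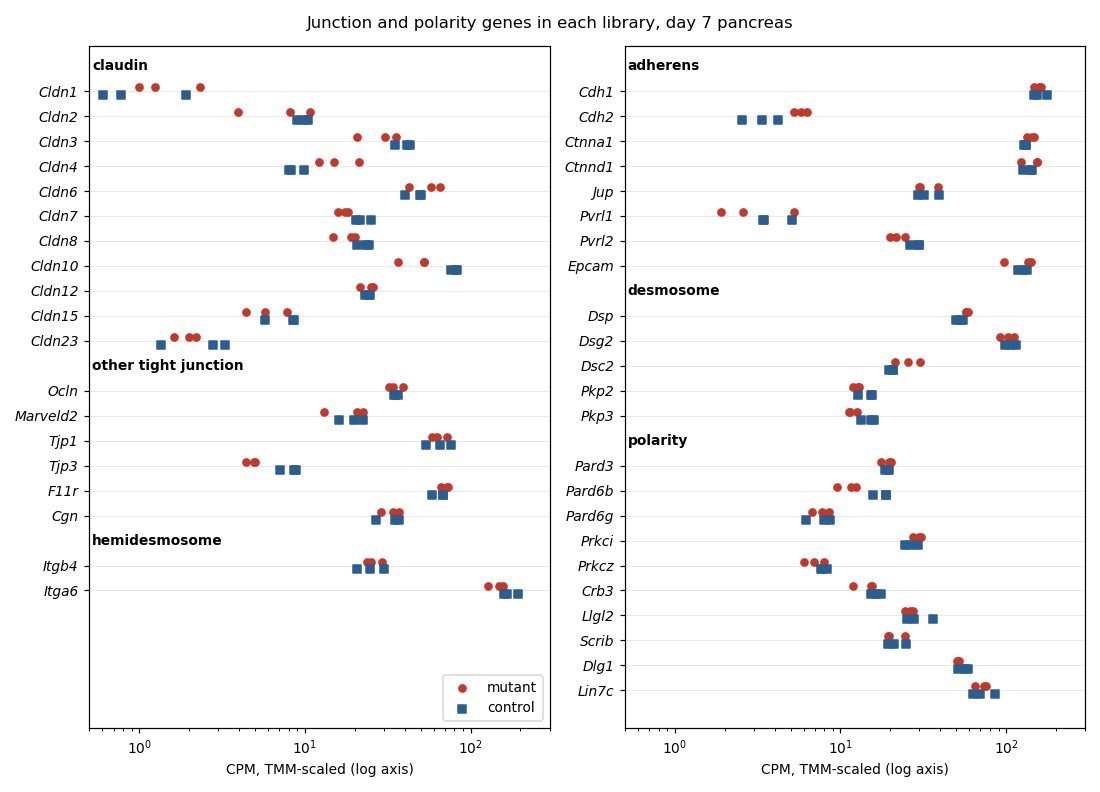
CPM of 42 junction and polarity genes in each library, on a log axis, with 1 point for each of 3 mutant (circles) and 3 control (squares) libraries. The points of Cldn10, Pard6b and Tjp3 lie lower in mutants and those of Cldn4 and Cdh2 lie higher, whereas those of Cdh1, Epcam, Ocln and Tjp1 overlap.

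Cldn10 showed the clearest difference of the claudins. It encodes claudin-10, which forms ion-selective pores between epithelial cells. It was at 36.7, 52.1 and 52.4 CPM in mutants 1 to 3, against 81.2, 82.5 and 76.4 CPM in controls 1 to 3. The 3 controls lay within a narrow range and every mutant lay below them, mutant 1 lowest. The fit gave 0.587 times the control level, a log2 fold change of -0.77 ± 0.14 (SE, n = 3 per group, edgeR adjusted p = 0.0177).

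The gene lies on chromosome 14 from 118787908 to 118875489 on the plus strand of GRCm38, the assembly that mm10 denotes. It has alternative first exons, which in textbook knowledge give isoforms with different ion selectivity. RefSeq accordingly lists more than 1 start for it, and counts per gene symbol sum the isoforms. The sequence before the upstream start of Cldn10 is shown with that before the start of Pard6b, because these are the members that fell. Both are 250 bases long, from RefSeq on GRCm38.p6, plus strand, and capitals mark the E-box words CAGCTG and CACCTG on either strand, which basic helix-loop-helix factors such as Ptf1a can bind.
Cldn10, chr14:118787621-118787870: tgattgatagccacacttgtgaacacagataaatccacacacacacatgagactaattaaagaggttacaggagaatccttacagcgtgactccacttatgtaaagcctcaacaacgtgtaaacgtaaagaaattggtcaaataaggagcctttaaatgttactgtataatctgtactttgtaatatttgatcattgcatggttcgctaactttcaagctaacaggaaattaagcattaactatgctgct
Pard6b, chr2:168080754-168081003: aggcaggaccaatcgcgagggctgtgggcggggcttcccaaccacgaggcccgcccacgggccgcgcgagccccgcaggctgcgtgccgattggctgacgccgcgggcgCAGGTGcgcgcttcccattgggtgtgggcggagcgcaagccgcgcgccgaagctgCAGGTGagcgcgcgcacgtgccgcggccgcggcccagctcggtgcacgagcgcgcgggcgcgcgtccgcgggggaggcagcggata

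The Cldn10 stretch held neither word. The 250 bases before the other RefSeq start of Cldn10, at chr14:118854700-118854949, held CAGCTG at 1 place and not CACCTG, and are not printed because 218 of them lie in an annotated exon. The Pard6b stretch held CACCTG at 2 places, both read on the minus strand and hence printed as CAGGTG, and did not hold CAGCTG. Among 32851 RefSeq windows of the same length, 17.2% held CACCTG, 13.0% held CAGCTG and 27.7% held either word. These matches describe letters only, and no binding was measured.

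Cldn4, which encodes a claudin that seals against sodium, moved the other way. It was at 21.2, 12.2 and 15.1 CPM in mutants 1 to 3, against 8.27, 9.94 and 7.98 CPM in controls 1 to 3. All 3 mutants lay above all 3 controls, with mutant 2 closest to them. The fit gave 1.86 times the control level (log2 fold change 0.89 ± 0.21 SE, n = 3), and this did not pass (edgeR adjusted p = 0.0649). Cldn4 passed without a filter on low counts (edgeR adjusted p = 0.0374), with a robust dispersion (0.0467), by DESeq2 (0.0263), with library totals alone (0.0268) and without mutant 2 (0.0133). Over its 15 alternatives the adjusted p lay between 0.0133 and 0.223.

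Cldn6, a claudin known from embryonic epithelia, had the highest mean level of the claudins per length over mutants, whereas Cldn3 and Cldn10 stood above it over controls. It was at 65.3, 42.5 and 57.4 CPM in mutants 1 to 3, against 50.2, 49.5 and 40.3 CPM in controls 1 to 3. The groups overlapped (log2 fold change 0.24 ± 0.16 SE, edgeR adjusted p = 0.588). Cldn3, a barrier-forming claudin, was at 30.5, 20.5 and 35.4 CPM in mutants, against 34.9, 41.1 and 43.3 CPM in controls. Only mutant 3 reached into the control range, and the difference did not pass (-0.46 ± 0.18, edgeR adjusted p = 0.299).

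Cldn7, a claudin found along the basolateral membrane as well as in the junction, was at 18.1, 15.8 and 17.4 CPM in mutants, against 25.0, 21.7 and 20.5 CPM in controls. Cldn8, a claudin best known from kidney tubules, was at 18.9, 14.9 and 20.2 CPM in mutants, against 24.4, 20.8 and 23.5 CPM in controls. In both genes all mutants lay below all controls, and neither passed (log2 fold changes -0.38 and -0.34, edgeR adjusted p = 0.198 and 0.330).

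The other 5 claudins were Cldn1, Cldn2, Cldn12, Cldn15 and Cldn23. Their groups overlapped, with log2 fold changes from -0.38 in Cldn23 to 0.38 in Cldn1. Cldn2 forms cation and water pores, and its mutant 2 value of 3.95 CPM stood below the other 5 libraries, which lay between 8.19 and 10.7 CPM. Cldn1 had between 4 and 20 counts in a library. Its 95% interval of the log2 fold change ran from -0.74 to 1.49, so that a 2-fold rise in mutants lay within it. Over the 11 claudins the median log2 fold change was -0.35, and -0.194 with library totals alone, beside 0.00 and 0.17 for all genes tested. Without mutant 2 it was -0.186 under the TMM scaling.

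Levels of different claudins were compared per kilobase of merged exons. Cldn6 was at 32.0 ± 6.74 CPM per kilobase in mutants and 27.1 ± 3.22 in controls (SD, n = 3 each), Cldn3 at 22.9 ± 6.03 in mutants and 31.6 ± 3.48 in controls, and Cldn10 at 18.2 ± 3.48 in mutants and 30.9 ± 1.24 in controls. In controls Cldn3 and Cldn10 did not differ beyond their spread, and Cldn6 overlapped Cldn3. These 3 genes held most of the claudin transcripts in both groups. Cldn7 followed with 8.77 ± 0.606 CPM per kilobase in mutants and 11.5 ± 1.19 in controls, and Cldn8 with 7.64 ± 1.18 in mutants and 9.70 ± 0.792 in controls. Cldn4 was at 8.90 ± 2.54 CPM per kilobase in mutants, level with Cldn7 and Cldn8 within the spread, and at 4.81 ± 0.584 in controls, below both. The lowest of the claudins was Cldn1, at 0.314 ± 0.146 CPM per kilobase in mutants and 0.227 ± 0.148 in controls.

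Shares of the summed claudin level show the same values without the scaling between libraries. Cldn10 made up 12.02, 21.6 and 16.7% of it in mutants 1 to 3, against 24.4, 24.0 and 23.2% in controls 1 to 3. Cldn6 made up 32.2, 26.6 and 27.6% in mutants, against 22.7, 21.7 and 18.4% in controls. Cldn4 made up 9.93, 7.22 and 6.87% in mutants, against 3.55, 4.12 and 3.46% in controls. In these 3 genes the groups did not overlap, whereas in the other 8 claudins they did. The mean share of Cldn3 was 20.5 ± 2.87% in mutants and 24.4 ± 2.77% in controls (SD, n = 3 each). A share can move because another claudin in the sum moved, and no test was made. The sum itself was 118, 92.9 and 121 CPM per kilobase in mutants, against 128, 133 and 127 in controls.

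**Figure D2:**
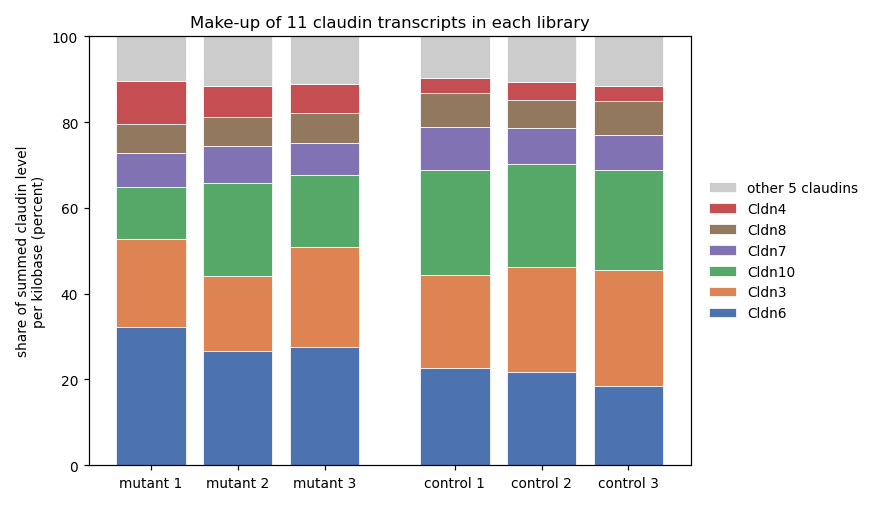
Share of each claudin in the summed claudin level per kilobase, in percent, with 1 bar for each mutant (left) and control (right) library. The Cldn4 share lay between 6.87 and 9.93% in mutants and between 3.46 and 4.12% in controls, and the Cldn10 share between 12.02 and 21.6% in mutants and between 23.2 and 24.4% in controls.

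Among the other tight junction genes 0 of 6 were called by edgeR or by DESeq2. An unadjusted edgeR p under 0.05 was found in 1 (16.7%, beside 12.8% of all genes tested). Tjp3, which encodes the zonula occludens protein ZO-3, came closest. It was at 4.95, 4.99 and 4.39 CPM in mutants 1 to 3, against 8.57, 8.84 and 7.11 CPM in controls 1 to 3. Both groups were tight and did not overlap, with mutants at 0.587 times the control level (log2 fold change -0.77 ± 0.18 SE, n = 3, edgeR adjusted p = 0.0628). Over 15 alternatives the adjusted p of Tjp3 lay between 0.0542 and 0.263, so it passed in none of them.

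Tjp1, which encodes ZO-1, was at 62.5, 58.4 and 72.4 CPM in mutants, against 54.0, 65.6 and 76.6 CPM in controls. Ocln, for the membrane protein occludin, was at 33.9, 32.1 and 39.1 CPM in mutants, against 36.4, 35.1 and 34.5 CPM in controls. The groups of both genes overlapped, and the 95% intervals of their log2 fold changes ran from -0.33 to 0.28 for Tjp1 and from -0.24 to 0.22 for Ocln. F11r, which encodes the adhesion molecule JAM-A, was at 71.7, 66.4 and 73.4 CPM in mutants, against 58.3, 68.2 and 68.3 CPM in controls (0.12 ± 0.10, edgeR adjusted p = 0.713). F11r had the highest level per length of these 6 genes, 26.5 ± 1.37 CPM per kilobase in mutants and 24.4 ± 2.15 in controls (SD, n = 3 each). Marveld2, for tricellulin at corners where 3 cells meet, and Cgn, for the cytoplasmic plaque protein cingulin, had log2 fold changes of -0.05 and 0.02.

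Among adherens junction genes 0 of 8 were called by edgeR or by DESeq2. An unadjusted edgeR p under 0.05 was found in 2, Cdh2 and Pvrl2 (25%, beside 12.8% of all genes tested). Cdh1, which encodes E-cadherin, was at 158, 148 and 161 CPM in mutants 1 to 3, against 176, 154 and 147 CPM in controls 1 to 3. Epcam, an epithelial surface adhesion protein, was at 136, 97.6 and 141 CPM in mutants, against 117, 133 and 127 CPM in controls. The groups of both genes overlapped. The 95% interval of the log2 fold change ran from -0.26 to 0.21 for Cdh1 and from -0.32 to 0.31 for Epcam. The catenins Ctnna1, Ctnnd1 and Jup, which link cadherins to actin or keratin, had log2 fold changes of 0.11, 0.06 and -0.03. In Ctnna1 all mutants, from 134 to 147 CPM, lay above all controls, from 129 to 133 CPM, although the difference was small (edgeR adjusted p = 0.697). Counts of Ctnnd1 are uncertain, since 61.2% of its exon bases overlap the readthrough gene Gm28635.

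Cdh2, which encodes N-cadherin of nerve, mesenchyme and endocrine cells, was at 5.81, 5.22 and 6.29 CPM in mutants 1 to 3, against 2.56, 4.199 and 3.36 CPM in controls 1 to 3. All mutants lay above all controls, at 1.69 times their level by the fit, and the difference did not pass (log2 fold change 0.76 ± 0.23 SE, n = 3, edgeR adjusted p = 0.169). Beside it, the summed endocrine markers were at 3567, 3277 and 3511 CPM in mutants, against 5218, 3204 and 3421 CPM in controls, and those of nerve and glia at 15.1, 23.0 and 17.5 CPM in mutants, against 17.1, 15.5 and 15.95 CPM in controls. Both lists overlapped between groups, and their part in the Cdh2 values was not tested.

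Pvrl2, which encodes the adhesion receptor nectin-2, was at 19.8, 24.5 and 21.6 CPM in mutants, against 26.2, 29.9 and 29.8 CPM in controls. Its groups did not overlap, and it did not pass (-0.39 ± 0.12, edgeR adjusted p = 0.159). Pvrl1, for nectin-1, had between 19 and 45 counts in a library and overlapping groups.

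No desmosome gene passed, 0 of 5 by edgeR or by DESeq2. An unadjusted edgeR p under 0.05 was found in 2, Dsc2 and Pkp3 (40%, beside 12.8% of all genes tested). Dsc2, for the cadherin desmocollin-2, was at 25.6, 21.5 and 30.1 CPM in mutants 1 to 3, against 19.7, 20.7 and 20.7 CPM in controls 1 to 3. Every mutant lay above every control, mutant 2 by a small margin (0.34 ± 0.13, edgeR adjusted p = 0.313). Dsp, for desmoplakin that binds keratin, was at 57.2, 57.4 and 58.7 CPM in mutants, against 54.9, 49.5 and 53.1 CPM in controls, again without overlap (0.14 ± 0.09, edgeR adjusted p = 0.587). Pkp3, for the plaque protein plakophilin-3, lay the other way, at 11.2, 11.4 and 12.6 CPM in mutants, against 13.2, 15.2 and 15.9 CPM in controls (-0.34 ± 0.13, edgeR adjusted p = 0.304). Dsg2, for desmoglein-2, and Pkp2, for plakophilin-2, overlapped between groups, with log2 fold changes of -0.06 and -0.21.

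Of 10 polarity genes, 0 rose and 1 fell. Pard6b encodes a Par6 adaptor that binds atypical protein kinase C, Par3 and Cdc42 at the apical side. It was at 11.5, 9.51 and 12.4 CPM in mutants 1 to 3, against 15.6, 18.9 and 18.7 CPM in controls 1 to 3. Every mutant lay below every control, at 0.627 times the control level by the fit (log2 fold change -0.67 ± 0.14 SE, n = 3, edgeR adjusted p = 0.0454). Pard6b lies on chromosome 2 from 168081004 to 168101203 on the plus strand of GRCm38, and its start is the one whose upstream sequence is printed with that of Cldn10.

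The kinase and Par3 partners of Par6 overlapped between the groups. Cdc42, which was no member, was at 171, 178 and 171 CPM in mutants, against 166, 145 and 142 CPM in controls, and did not pass although every mutant lay above every control (0.20 ± 0.10, edgeR adjusted p = 0.474). Pard6g, a further Par6 gene, was at 8.57, 6.73 and 7.79 CPM in mutants, against 7.97, 6.19 and 8.65 CPM in controls (0.02 ± 0.18). Pard3, the Par3 scaffold, had a log2 fold change of -0.00, and the atypical kinase genes Prkci and Prkcz had 0.13 and -0.18. Crb3, the Crumbs protein of the apical membrane, was at 15.5, 11.8 and 15.3 CPM in mutants, against 17.6, 15.2 and 16.4 CPM in controls (-0.20 ± 0.14, edgeR adjusted p = 0.629). Lin7c, of the Crumbs-associated scaffold, and Llgl2, Scrib and Dlg1, of the basolateral Scribble group, had log2 fold changes between -0.18 and -0.02. Inadl, the older symbol of Patj, which scaffolds the Crumbs complex, was at 27.0, 18.8 and 26.4 CPM in mutants, against 21.4, 26.3 and 26.8 CPM in controls (-0.05 ± 0.15, edgeR adjusted p = 0.948).

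**Figure D3:**
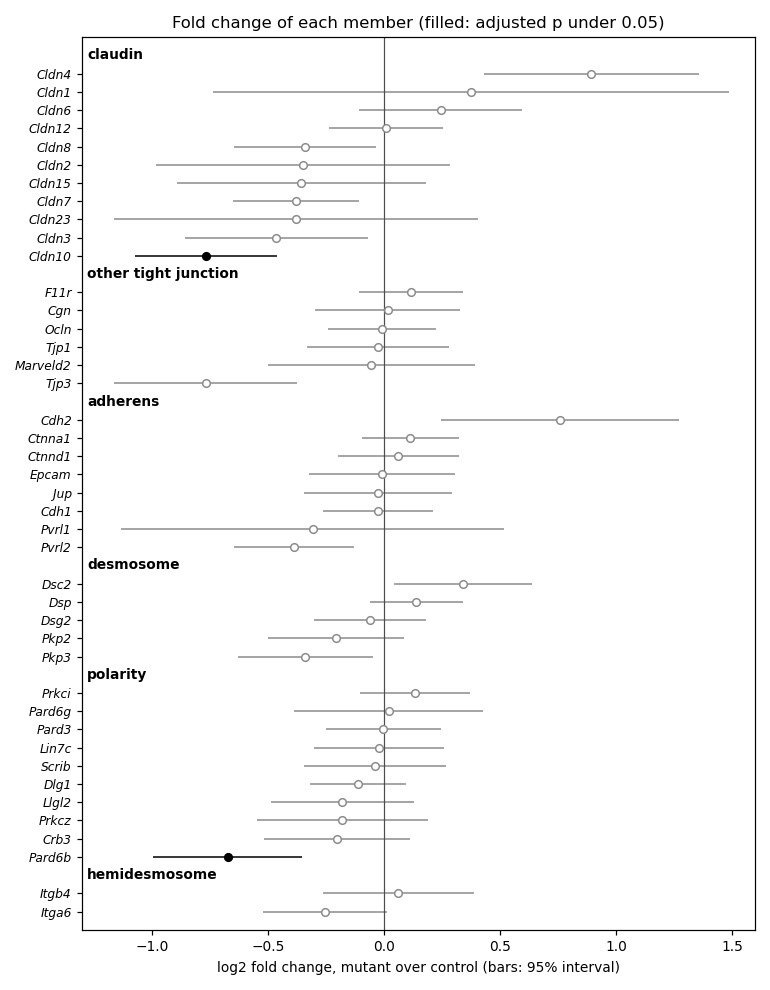
Log2 fold change, mutant over control, of each of the 42 genes by role, with its 95% interval from the edgeR fit, not adjusted for the number of genes. Filled points mark Cldn10 (-0.77) and Pard6b (-0.67), which passed an adjusted p of 0.05, and open points mark the other 40.

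The claudin median lay furthest from 0 of the 6 role groups. The median log2 fold change was -0.35 over claudins, -0.02 over other tight junction genes, -0.02 over adherens junction genes, -0.06 over desmosome genes, -0.08 over polarity genes and -0.10 over the integrin pair. With library totals alone the claudin median was -0.194 and those of the other 5 groups lay between 0.07 and 0.15, beside 0.17 for all genes tested. That scaling raised the median of every group, so the signs give no further distinction between them. Without mutant 2 the claudin median was -0.186 under the TMM scaling. Over 3 tested claudins outside the list it was -0.067 with all libraries. No test between the role groups was made.

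Ratios of related members within a library do not depend on the scaling. Of 9 pairs compared, 6 had groups that did not overlap, each with an exact two-sided permutation p = 0.1, which is the lowest that 3 against 3 libraries can give, and 0.15 after adjustment over the 9 pairs. None can therefore pass. Each of these 6 pairs held a member whose own groups did not overlap, namely Cldn4, Tjp3, Cdh2, Dsc2, Pard6b or Itga6. The ratios thus partly restate those members. No share over other gene pairs was computed, and of single genes tested 19.0% had groups that did not overlap. The ratio of Cldn4 to Cldn3 was 0.697, 0.593 and 0.425 in mutants 1 to 3, against 0.237, 0.242 and 0.184 in controls 1 to 3, a difference of 1.35 in mean log2 ratio. The ratio of Pard6g to Pard6b was 0.744, 0.707 and 0.629 in mutants, against 0.510, 0.327 and 0.462 in controls, a difference of 0.70.

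The ratio of Tjp3 to Tjp1 was 0.0793, 0.0855 and 0.0607 in mutants, against 0.159, 0.135 and 0.0928 in controls, a difference of -0.76. The ratio of Cdh1 to Cdh2 was 27.2, 28.4 and 25.7 in mutants, against 68.8, 36.7 and 43.7 in controls, a difference of -0.83. The ratios of Dsc2 to Dsg2 and of Itgb4 to Itga6 were higher in every mutant than in any control, by 0.39 and 0.32, and without mutant 2 the difference of Itgb4 to Itga6 was 0.15. In the remaining pairs, Pvrl2 to Pvrl1, Pkp3 to Pkp2 and Prkcz to Prkci, the groups overlapped (exact permutation p = 1, 0.6 and 0.2).

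**Figure D4:**
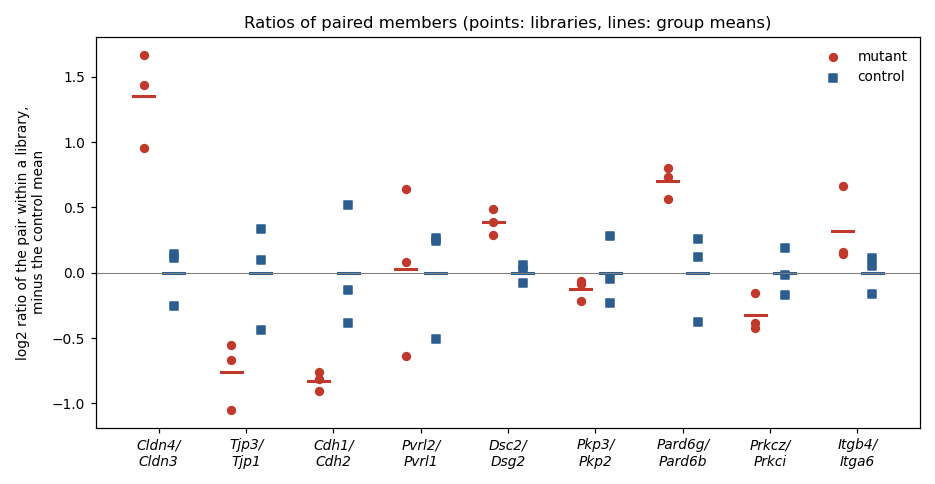
Log2 ratio of 9 pairs of members within each library, minus the control mean of that pair, with circles for 3 mutant and squares for 3 control libraries and lines for group means. The Cldn4 to Cldn3 ratio stood 1.35 above and the Cdh1 to Cdh2 ratio 0.83 below the control mean.

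At the basal side, Itgb4 and Itga6 encode the integrin that binds laminin in hemidesmosomes. Itgb4 was at 25.0, 29.1 and 23.9 CPM in mutants 1 to 3, against 29.9, 24.7 and 20.6 CPM in controls 1 to 3, with overlapping groups (0.06 ± 0.15, edgeR adjusted p = 0.921). Itga6 was at 158, 128 and 148 CPM in mutants, against 192, 166 and 160 CPM in controls. All mutants lay below all controls, and Itga6 did not pass (-0.26 ± 0.12, edgeR adjusted p = 0.418).

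Among 98 further genes of the same structures found in the files, 71 passed the filter on low counts. Of these, 0 rose and 1 fell (1.41%, beside 2.06% of all genes). The gene that fell was Lamb3, the beta chain of laminin-332, which is the main ligand of the hemidesmosome integrin. Lamb3 was at 2.09, 0.812 and 1.70 CPM in mutants 1 to 3, against 12.3, 15.4 and 12.8 CPM in controls 1 to 3. The groups lay far apart, with an 8.56-fold lower level in mutants (log2 fold change -3.10 ± 0.26 SE, n = 3, edgeR adjusted p = 0.000168), and the call held in all 15 alternatives.

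Lama3, which encodes the alpha chain of the same laminin, did not pass. Lama3 was at 5.24, 4.87 and 5.49 CPM in mutants, against 2.56, 6.30 and 6.63 CPM in controls. The groups overlapped (log2 fold change -0.02). Lamb3 lies on chromosome 1 from 193207699 to 193343878 on the plus strand of GRCm38 and shared no stretch of 50 transcript bases with another annotated gene.

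**Figure D5:**
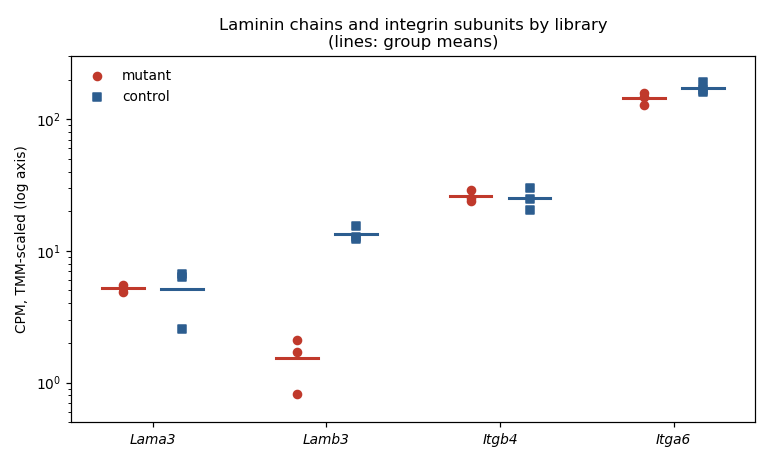
CPM of the laminin-332 chains Lama3 and Lamb3 and of the integrin genes Itgb4 and Itga6 in each library, on a log axis, with circles for mutants, squares for controls and lines for group means. Lamb3 lay between 0.812 and 2.09 CPM in mutants and between 12.3 and 15.4 CPM in controls, whereas Lama3 and Itgb4 overlapped between groups.

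By role, 0 of 3 further claudins, 0 of 17 further tight junction genes, 0 of 18 further adherens genes, 0 of 4 further desmosome genes and 0 of 20 further polarity genes were called by edgeR, with 0, 2, 3, 0 and 3 of them at an unadjusted p under 0.05. Over all 71 further genes tested, 9 (12.7%) were under it, beside 12.8% of all genes tested. DESeq2 called Lamb3 alone of the further genes. Of the 98, 27 did not pass the filter on low counts, 12 of them claudins. The desmosome gene Dsc3 was left out there too, at 14.7 CPM in mutant 2 and at most 1.92 CPM in every other library.

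Markers of cell types that could carry these genes were summed in each library. The acinar sum lay between 231860 and 290740 CPM in mutants and between 295240 and 309870 CPM in controls, with 1 of 13 markers, Cel, called lower. At an unadjusted edgeR p under 0.05 there were 6 of the 13, all lower in mutants, namely Cel, Cela3b, Pnlip, Rbpjl, Ptf1a and Gata4. Much of the difference in the acinar sum lay in Cel, at a mean of 34864 CPM in mutants and 66222 CPM in controls. Ctrb1, the largest of the acinar markers, had means of 139770 CPM in mutants and 139660 CPM in controls, with overlapping groups. The duct sum lay between 620 and 817 CPM in mutants and between 816 and 935 CPM in controls, with 0 of 12 markers called by edgeR and 7 at an unadjusted p under 0.05. Of all genes tested, 12.8% had an unadjusted p under 0.05. The mesothelial sum lay between 94.9 and 116 CPM in mutants and between 76.4 and 162 CPM in controls, the fibroblast and stellate sum between 3665 and 5066 CPM in mutants and between 3391 and 5434 CPM in controls, and the endothelial sum between 249 and 272 CPM in mutants and between 243 and 266 CPM in controls. The adipocyte sum lay between 47.1 and 64.5 CPM in mutants and between 76.1 and 131 CPM in controls, and the immune sum between 147 and 231 CPM in mutants and between 147 and 175 CPM in controls. The highest immune sum was that of mutant 2, where Ptprc was at 57.0 CPM, against between 4.69 and 14.4 CPM in every other library. Its part in the other values of mutant 2 was not tested. Fabp4 of the adipocyte list, Vil1 of the intestine list and C1qa of the immune list were called lower, and C1qc of the immune list higher. Intestine markers summed to between 4.39 and 5.998 CPM in mutants and between 9.77 and 12.04 CPM in controls, nearly all from Vil1 and Lgr5, with Cdx2 and Fabp2 at 0 in all 6 libraries. The stomach sum, between 777 and 861 CPM in mutants and between 975 and 1084 CPM in controls, was nearly all Tff2, with Tff1 and Gkn2 at 0. Muc6, a mucin of gastric glands and the 1 stomach marker called, went the other way from that sum, at 5.71, 2.44 and 4.29 CPM in mutants against 0.752, 0.663 and 0.384 CPM in controls (log2 fold change 2.82 ± 0.43 SE, edgeR adjusted p = 0.00771). The acinar, adipocyte, intestine and stomach sums were thus lower in every mutant than in any control, as was the level of Cldn10, Pard6b and Lamb3, and their part in those values was not tested.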

How the data were processed

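The authors deposited 1 file of raw counts for each library, with whole numbers for each gene symbol and no lines for unassigned reads, per the file headers and the values. The submitters' processing notes name the genome build mm10 and the tools STAR, cutadapt 1.13, DESeq2 and HTSeq 0.6.1p1, with no role or order. No source used here states the annotation, the strand setting or the handling of reads with several matches, so overlapping and antisense genes could not be separated.

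Counts were tested with edgeR 4.0.16 in R 4.3.3 (quasi-likelihood test, TMM, filterByExpr, Benjamini-Hochberg over 13017 genes, threshold 0.05). Standard errors are the absolute log2 fold change over the square root of F. 1 CPM corresponded to between 6.65 and 10.5 counts. Lengths and coordinates came from GENCODE M21 on GRCm38, where all 42 members matched 1 gene, Pvrl1 and Pvrl2 through RefSeq synonyms. Of the members, Ctnnd1 shared 56.7% of its 50-base transcript stretches with another gene, Cgn 17.2%, Prkcz 14.8%, Itga6 5.31% and the others under 1%. Within groups, a chi-square statistic between libraries lay between 5.83 and 20.5 per degree of freedom, so all 6 were kept as separate samples. The fit was tested on simulated data. DESeq2 1.42.0, other scalings and filters, a robust dispersion, a replicate block and leaving out libraries were tried as alternatives.

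The members and lists were chosen with earlier results of these data known. Named genes were all members past the threshold, the 5 claudins highest per length, the 2 members of each role group with the smallest adjusted p, Cdh1, Epcam, Tjp1, Ocln and Itgb4, the pathway genes past the threshold and Prox1. Any other gene given with a value was chosen after its values were seen.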

Additional observations from a re-analysis of the deposited data

How the results depend on the processing

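Depth limited Cldn1, Cldn23 and Pvrl1, which had at most 20, 30 and 45 counts in a library. Deviations from group means of same-numbered libraries correlated at 0.08, 0.03 and -0.07, and those of differently numbered libraries between -0.109 and 0.111. With 3 libraries per group, such values cannot decide whether the replicate numbers of the titles pair the libraries. With these numbers as a replicate block, 1 member was called instead of 2, and 0 polarity genes, since Pard6b missed the threshold (edgeR adjusted p = 0.0912). Library totals alone gave 1 called member, Cldn4, with 0 polarity genes, and 2 called genes of the further list. They gave 190 higher and 130 lower genes among all tested, against 71 and 197 with TMM, so that 59.4% of called genes were higher against 26.5%. Claudins called numbered 2, namely Cldn10 and Cldn4, without a filter on low counts, with a robust dispersion and by DESeq2, and DESeq2 called 0 polarity genes (Pard6b adjusted p = 0.0556).

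Leaving out libraries gave between 125 and 484 called genes among all tested, where 268 were called with all 6. The lowest count came without control 2. The highest came without mutant 2 and control 1 together, an alternative chosen after seeing the data because these libraries differed most from the others of their group, and 4 members were called there (Cldn10, Cldn4, Pard6b and Pvrl2). Without 1 library at a time the called members numbered between 0 and 2, with 0 without control 2 or control 3. Over these alternatives the called claudins numbered 0 to 2, adherens genes 0 to 1, polarity genes 0 to 1 and genes of the further list 1 to 2.

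Small differences changed sign and passed in no alternative. With library totals alone the log2 fold change became 0.14 in Cdh1, 0.15 in Epcam, 0.13 in Tjp1 and 0.15 in Ocln. Leaving out libraries moved it between -0.081 and 0.087 in Cdh1, -0.11 and 0.15 in Epcam, -0.14 and 0.10 in Tjp1, -0.098 and 0.068 in Ocln and -0.069 and 0.20 in Itgb4. The difference of the Pvrl2 to Pvrl1 ratio was -0.069 with a pseudocount of 1 CPM and lay between -0.28 and 0.36 without 1 library, and that of Pkp3 to Pkp2 lay between -0.24 and 0.018. The cause of these changes was not tested.

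With the longest transcript as length, which is shorter than the merged exons in Cldn7 and Cldn10 and equal to them in Cldn8, Cldn10 was at 22.1 CPM per kilobase in mutants and 37.6 in controls, and Cldn7 at 12.8 in mutants and 16.8 in controls. The share of the claudin sum became 10.6% in mutants and 11.6% in controls for Cldn7, 6.26% in mutants and 6.73% in controls for Cldn8, and 26.04% in controls for Cldn10.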
